A study of Mus musculus with 5 samples.

Results

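The miR-30 family was followed through Ago HITS-CLIP libraries of the developing mouse liver, a method in which Argonaute (Ago) proteins are crosslinked to the RNAs they hold, pulled down and sequenced. The 5 members were mmu-miR-30a-5p, mmu-miR-30b-5p, mmu-miR-30c-5p, mmu-miR-30d-5p and mmu-miR-30e-5p, out of 995 miRNAs named in the tables. A member's sites were the table entries that name it, and entries of several members at the same position were counted as 1 site. This gave 3467 sites over the 5 libraries, out of 1764811 positions listed for any miRNA seed. By age, from e12.5 to Adult, the libraries held 1357, 745, 802, 1580 and 1107 sites.

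The libraries came from livers of mouse fetuses at e12.5, e15.5 and e18.5, newborns at P7 and adults of 6 to 8 weeks, with no treatment in any group. Runs of 5 values below follow age, from e12.5 through both later fetal ages and P7 to Adult. Each stage had 1 table, so values carry counting error only, and tests compare libraries rather than stages. Antibodies to Ago2 were used at all stages and antibodies to Ago1 were added at P7 and in the Adult, so antibody and birth cannot be told apart in these data. The embryonic tables each held 2 lists, which were added together, whereas P7 and Adult held 1. A second replicate is named in the supplement for e18.5 alone, and whether the lists of any table are replicates or runs is not given in the sources used here. Summed cluster reads ran from 13008703 at e18.5 to 44867326 at e12.5.

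miRNAs guide Ago to messenger RNAs through the seed, the bases near the 5′ end of the miRNA that pair with the target. Members of a family share the seed, so they can bind the same sites. The miR-30 family is widely expressed and is known in other tissues for targets in the cell cycle, adhesion and miRNA silencing itself. The liver changes during this period from a blood-forming organ to a metabolic one.

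The mature sequences of mmu-miR-30a-5p, mmu-miR-30c-5p and mmu-miR-30e-5p show what the members share and where they part, with the seed (bases 2 to 8) in capitals. They were taken from RefSeq (GRCm38.p6), which matched 3 of the 5 members.
mmu-miR-30a-5p: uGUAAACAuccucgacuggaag
mmu-miR-30c-5p: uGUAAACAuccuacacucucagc
mmu-miR-30e-5p: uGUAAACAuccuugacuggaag
mmu-miR-30a-5p and mmu-miR-30e-5p differed at 1 of 22 positions, so reads of one could be counted for the other, while mmu-miR-30c-5p differed from each at 5 of 22 positions. No miRNA outside the 5 members carried this seed in the tables. Mir30a lies at chr1:23272269-23272339 on the plus strand with Mir30c-2 at chr1:23291701-23291784, and Mir30e lies at chr4:120772606-120772697 on the minus strand with Mir30c-1 at chr4:120769534-120769622.

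Among 3′UTR sites of at least 7 matched bases listed in all 5 libraries, most of the heavily read ones carried the full complement of the seed. Shorter matches, such as the heavily read Igf2 site, could not enter this ranking. The target sequences below, as deposited, have in capitals the bases that match the seed and, where present, the A opposite base 1 of the miRNA. The coordinates (mm10) are those of the bases opposite the seed. These sites were chosen because they were among the most read in the 3′UTR, changed most between e12.5 and Adult, or lie in a coding sequence (CDS).
Gigyf1 3′UTR, chr5:137527705-137527711, plus strand: ctgagagtggccaaTGTTTACA
Itgb3 3′UTR, chr11:104667194-104667200, plus strand: actctctgccattaTGTTTACA
Ccdc71l 3′UTR, chr12:32379723-32379729, plus strand: caatgtcagtcgaaTGTTTACA
Gucd1 3′UTR, chr10:75507581-75507587, minus strand: acagaggtggtctgTGTTTACA
Hipk1 3′UTR, chr3:103742391-103742397, minus strand: gtagtggttaatagaGTTTACA
Fgfr3 3′UTR, chr5:33735596-33735602, plus strand: caagccccaggcaaTGTTTACg
Hist2h2bb CDS, chr3:96269868-96269874, plus strand: aaggagagctattcTGTTTACg
Tst CDS, chr15:78399810-78399816, minus strand: aaacccgatgtggcTGTTTACg
The Gigyf1, Itgb3, Ccdc71l and Gucd1 sites are 8mers (bases 2 to 8 matched, with an A opposite base 1), the Fgfr3, Hist2h2bb and Tst sites are 7mer-m8 (bases 2 to 8 matched, without that A), and the Hipk1 site is a 7mer-A1 (bases 2 to 7 matched, with the A).

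Abundance was taken from the number in each miRNA's name, read here as its read count, which is inferred and not given in the sources used here. For mmu-miR-30a-5p, the member for which this was checked, the number was 105176 at e12.5 and 558980 at P7, and the cluster over Mir30a held 104847 and 558086 reads. All values of abundance rest on this reading.

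The family took its highest share of miRNA reads at P7. It made up 1.41%, 1.97%, 3.35%, 8.29% and 2.20% of miRNA reads from e12.5 to Adult. The Wilson 95% intervals did not overlap between any of these libraries, and the widest ran from 8.27% to 8.30% at P7. These intervals cover the counting of reads only, and PCR copies of a molecule are not independent. The lists of an embryonic table differed by more: in order of fetal age the first lists had 1.84%, 1.86% and 3.17%, and the second lists 1.29%, 2.002% and 3.84%. With gene copies summed, the Adult (1.71%) was below e15.5 (2.18%), so the order of these libraries is not settled, while P7 was highest under each alternative. From e18.5 to P7 the share was 2.48-fold higher, and in the Adult it was 0.266 of that at P7.

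mmu-miR-30a-5p carried most of the P7 value. It had 4117, 6286, 12148, 46394 and 10722 rpm (reads per 1000000 miRNA reads) from e12.5 to Adult, and at P7 it was the miRNA of rank 5 among all. It was the most abundant member in every library, and its share of the family's reads was 29.3% at e12.5, 56.0% at P7 and 48.7% in the Adult. mmu-miR-30e-5p came next in every library, with 3843, 5289, 10175, 16490 and 4843 rpm from e12.5 to Adult.

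The other members were lower, and their folds to P7 were smaller than that of mmu-miR-30a-5p. mmu-miR-30c-5p had 3212, 4497, 5167, 9961 and 2853 rpm from e12.5 to Adult. mmu-miR-30d-5p had 2104, 2702, 4791, 8866 and 3146 in the same order. mmu-miR-30b-5p, the least abundant, had 788, 885, 1176, 1168 and 465 from e12.5 to Adult. Between e12.5 and P7 the fold was 11.3 for mmu-miR-30a-5p, 4.29 for mmu-miR-30e-5p, 4.21 for mmu-miR-30d-5p, 3.10 for mmu-miR-30c-5p and 1.48 for mmu-miR-30b-5p. As shares of all miRNA reads, all 5 members were thus higher at P7 than at e12.5, whereas mmu-miR-30b-5p and mmu-miR-30c-5p were lower in the Adult than at e12.5 and the other members were higher. These directions depended on the whole. With blood cell miRNAs left out of it, the folds from e12.5 to P7 were 4.58, 0.602, 1.26, 1.71 and 1.74 for members a to e in alphabetical order, so mmu-miR-30b-5p was lower at P7, and from e12.5 to Adult they were 0.984, 0.223, 0.336, 0.565 and 0.476, so all 5 were lower in the Adult.

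**Figure D1:**
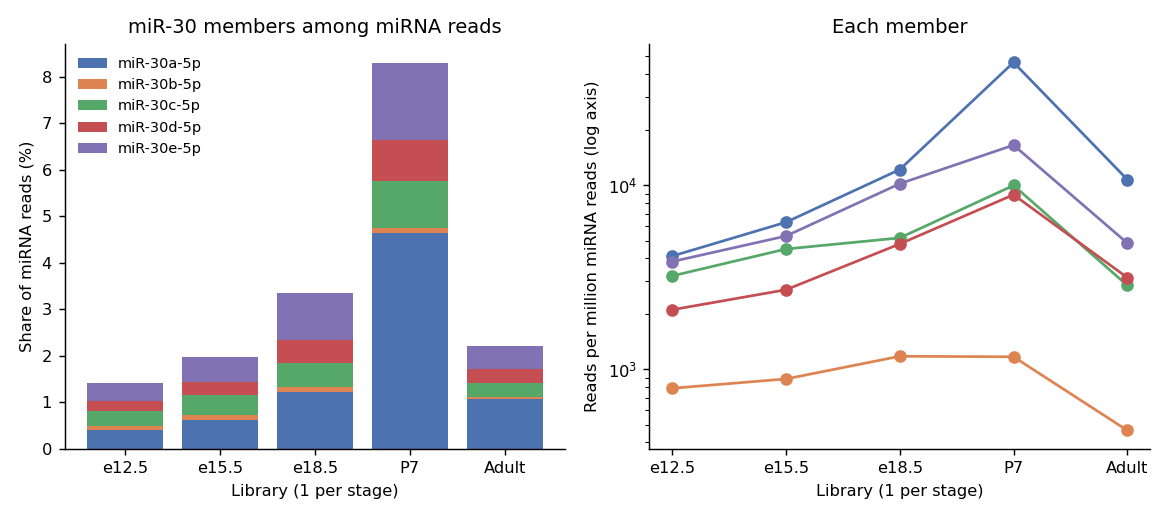
Left, share of all miRNA reads (%) taken by each miR-30 member in the 5 libraries, stacked. Right, rpm of miRNA reads of each member on a log axis, where points are single libraries without error bars. On the left the family reaches 8.29% at P7, with mmu-miR-30a-5p as the lowest segment. On the right mmu-miR-30a-5p is the highest line in every library.

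miRNAs of other cell types also changed between these libraries. The erythroid list (5 of 6 names found) took 31.7%, 16.3%, 14.3%, 3.26% and 2.57% of miRNA reads from e12.5 to Adult, and the leukocyte list (5 of 5 found) took 33.2%, 37.9%, 27.3%, 10.3% and 4.55%. The hepatocyte list (3 of 3 found) took 2.36%, 6.79%, 12.8%, 23.0% and 23.0% from e12.5 to Adult. The lists of endothelial (2 of 2 names found), mesenchymal (4 of 5) and epithelial and bile duct miRNAs (5 of 5) took 0.699%, 0.259% and 0.238% at e12.5, then 1.86%, 1.24% and 1.33% at P7 and 5.31%, 0.791% and 0.218% in the Adult. The mesenchymal and epithelial lists were thus highest at P7, as the family was, and the endothelial list was highest in the Adult. No miRNA found from these lists was at 0 in any library. With the blood cell miRNAs left out of the whole, the family took 4.01%, 4.29%, 5.73%, 9.59% and 2.37% from e12.5 to Adult. Thus, the P7 library stayed highest, but the order of e12.5 and Adult turned. The part of these other miRNAs in the family's course was not tested. In bulk liver, fewer cells of a type and less RNA per cell cannot be told apart.

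Among 82 other miRNAs with a mean of at least 1000 rpm, those whose course over the 5 libraries was most like the family's were miR-200b-3p (Pearson r = 0.93), miR-126a-5p (r = 0.92), miR-146a-5p (r = 0.90), let-7d-5p (r = 0.88) and miR-30a-3p (r = 0.88). These are descriptions over 5 points that share libraries. miR-200b-3p had 185 rpm at e12.5 and 4221 at P7, and miR-146a-5p had 331 and 4452.

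The opposite arms of the same precursors did not keep a fixed ratio to the members. Reads of the 3p arm per 100 of the 5p arm were 33.8, 34.7, 12.4, 48.7 and 12.6 for miR-30a. They were 44.0, 52.8, 10.1, 44.8 and 16.5 for miR-30e. Both pairs were therefore low at e18.5 and in the Adult and high in the other libraries. For miR-30b, miR-30c and miR-30d the 3p arm stayed between 0.109 and 3.64 per 100 reads of the 5p arm.

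**Figure D2:**
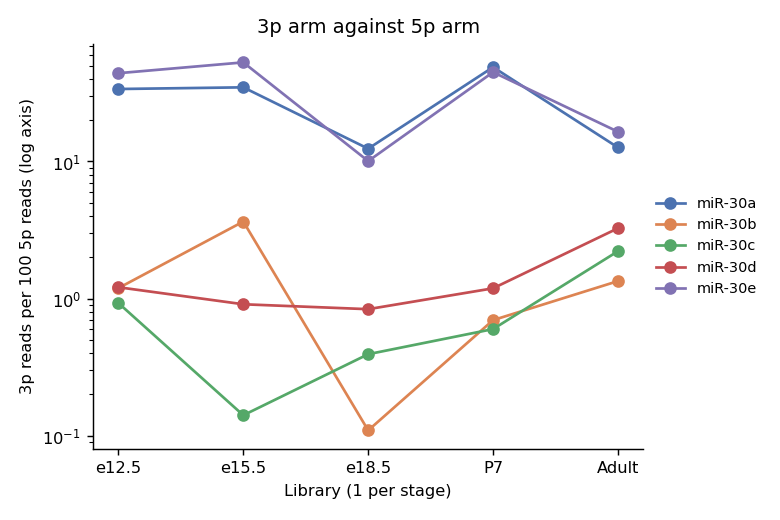
Reads of the 3p arm per 100 reads of the 5p arm (log axis) for each miR-30 precursor name in the 5 libraries; points are single libraries. miR-30a and miR-30e lie above 10 in every library, and the other names lie below 4.

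Some listed sites lay inside miRNA genes. The miR-30e-3p arm holds an 8mer of the family, miR-30c-2-3p a 7mer-m8 and miR-15b-5p a 7mer-A1, shown in capitals.
miR-30e-3p: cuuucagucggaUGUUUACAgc
miR-30c-2-3p: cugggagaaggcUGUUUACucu
miR-15b-5p: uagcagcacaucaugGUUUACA
The Mir30e position held 42943, 28006, 7926, 88310 and 18164 reads from e12.5 to Adult, beside 43225, 28204, 7968, 88991 and 18282 reads of miR-30e-3p itself. The Mir15b position held 65539 reads at e12.5 and 13650 in the Adult. Only 6 to 8 sites a library lay in miRNA genes, but they took between 22.8% of all reads at the family's sites at e18.5 and 57.3% at P7. They were left out of the rankings of genes below.

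Most sites were listed with all 5 members, from 88.5% of sites at e12.5 to 90.6% at P7. Of the 156 sites at e12.5 with fewer members, 46.8% were 6mers (bases 2 to 7 matched, without the A), against 21.7% of all the family's sites there. At 3′UTR sites of at least 7 matched bases listed with all members, the median predicted free energy of pairing at P7, in the unstated unit of the tables, was -7.55 for mmu-miR-30a-5p, -7.50 for mmu-miR-30e-5p, -7.20 for mmu-miR-30d-5p, -6.85 for mmu-miR-30b-5p and -6.70 for mmu-miR-30c-5p. mmu-miR-30e-5p or mmu-miR-30a-5p had the lowest value most often in every library, at 47.3% to 53.3% and 41.1% to 46.3% of sites (ties count for each).

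The family's 3′UTR sites were long matches. The 8mer share of 3′UTR sites was 40.3% (191 of 474), 43.6% (120 of 275), 49.1% (157 of 320), 42.0% (231 of 550) and 44.4% (164 of 369) by age. Over all other seeds the 8mer share was between 7.31% and 8.12%. Among the seed families with at least 50 sites, 380 to 602 a library, the miR-30 seed had the highest 8mer share in all 5 libraries. Families whose bases 2 to 7 held the same number of G and C, 74 to 110 a library, had median 8mer shares of 6.56% to 7.67% and a highest share of 37.0%. In turn, 6mers were 9.82% to 14.9% of the family's 3′UTR sites and 52.8% to 54.3% of those of other seeds.

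**Figure D3:**
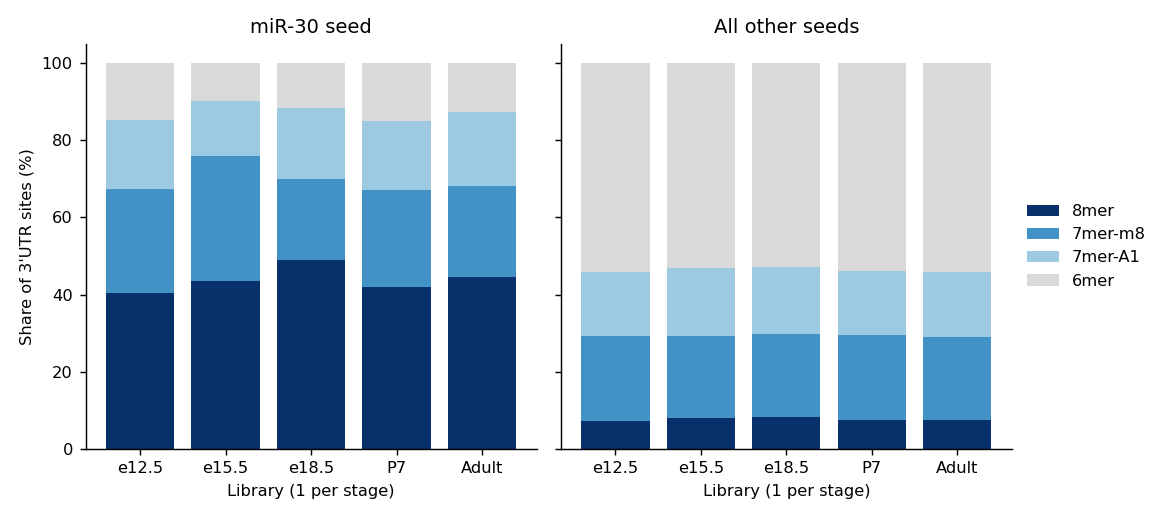
Share (%) of 3′UTR sites by length of the seed match in the 5 libraries, for the miR-30 seed (left) and for all other seeds (right). The 8mer share of the miR-30 seed is 40.3% to 49.1%, against 7.31% to 8.12% for the other seeds.

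These sites also had high conservation scores in the deposited tables. The median score of the family's 3′UTR sites was 0.979, 0.98, 0.998, 0.981 and 0.98 from e12.5 to Adult, whereas that of the 3′UTR sites of other seeds was 0.189 to 0.534. Among 8mers alone, 75.4% of the family's sites at e12.5 scored at least 0.5, against 50.6% for other seeds, and in the Adult 73.8% against 50.1%. A score near 0 was nonetheless given to heavily read sites in Gucd1 (0.005), Slc12a7 (0.001) and Ifnar2 (0.002).

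By region, 33.3% to 39.9% of the family's sites lay in a 3′UTR, against 19.6% to 25.4% for other seeds. The CDS held 27.0%, 30.9%, 30.2%, 25.5% and 35.4% from e12.5 to Adult, whereas other seeds had 34.4% to 53.1% there. Introns held 18.1%, 18.3%, 15.7%, 30% and 25.2%, beside 24.5%, 17.3%, 18.0%, 20.1% and 20.7% for other seeds. The family was thus below the other seeds in introns at e12.5 and above them at P7 and in the Adult. At e15.5 (Wilson interval 15.6% to 21.2%) and e18.5 (13.4% to 18.4%) the interval held the value of the other seeds. The 5′UTR held 1.26% to 2.01%. A position may carry more than 1 region where transcripts differ.

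To ask whether the family's sites took another share of Ago binding at different ages, 3′UTR clusters with a miR-30 site were counted. The share was 1.20% at e12.5 (473 of 39452 clusters; Wilson 95% interval 1.10% to 1.31%), 1.51% at e15.5 (275 of 18219; 1.34% to 1.70%) and 1.98% at e18.5 (320 of 16150; 1.78% to 2.21%). It was 1.86% at P7 (550 of 29603; 1.71% to 2.02%) and 2.32% in the Adult (369 of 15914; 2.10% to 2.56%). By clusters the share was thus lowest at e12.5 and highest in the Adult, but the interval of e18.5 overlapped those of P7 and of the Adult. The first and second e18.5 lists alone had 2.09% and 2.29%, both above the value of the joined lists. Adult and e18.5 were not tested against each other. The median of the other seed families stayed between 0.635% and 0.829%.

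Between the Adult and e12.5 libraries the miR-30 share was higher in the Adult, with a log2 odds ratio of 0.97 (two-sided Fisher's exact test, Benjamini-Hochberg adjusted p = 1.97e-19 over 307 seed families). It ranked 13 among those families, of which 64 were called higher and 65 lower, 42% in all. With genes counted in place of clusters the log2 odds ratio was 0.25 (Fisher's exact test, adjusted p = 0.0212), where 88.5% of 305 families were called and the median family had -0.80. Between P7 and e18.5 the log2 odds ratio was -0.09 (Fisher's exact test, adjusted p = 0.535, 339 families), where 29.5% of families were called in either direction. With the second e18.5 list alone it was -0.31 (Fisher's exact test, adjusted p = 0.0429). Between the Adult and P7 it was 0.33 (Fisher's exact test, adjusted p = 0.00878, 327 families), where 15.9% were called, 41 higher and 11 lower. This last call was lost with clusters of at least 10 reads (Fisher's exact test, adjusted p = 0.141). With genes counted in place of clusters, the log2 odds ratio was 0.35 for P7 against e18.5 (Fisher's exact test, adjusted p = 0.00240) and -0.06 for Adult against P7 (adjusted p = 0.688), beside medians over all families of 0.44 and -0.27. By clusters these medians were -0.01 and 0.13, so the miR-30 value lay at -0.08 from the median family under both counts for P7 against e18.5, and at 0.20 and 0.21 for Adult against P7. Thus, the family's reads were highest at P7, whereas the share with its sites was highest in the Adult by clusters and highest at P7 by genes (6.45%, against 6.21% in the Adult).

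**Figure D4:**
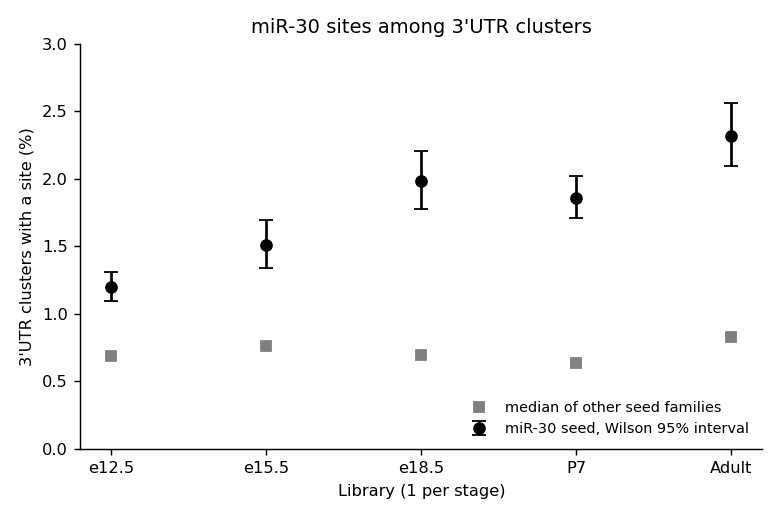
Share (%) of 3′UTR clusters that hold a miR-30 site in the 5 libraries (black, with Wilson 95% intervals, counting error only) and the median share of other seed families with at least 50 clusters (grey squares). The miR-30 share runs from 1.20% at e12.5 to 2.32% in the Adult.

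By reads, clusters with a miR-30 site held 1.23%, 1.26%, 1.49%, 3.37% and 1.86% of 3′UTR cluster reads. In the Adult, 39.3% of 3′UTR cluster reads came from clusters over annotated miRNA genes. Without such clusters the shares were 1.28%, 1.31%, 1.54%, 3.92% and 3.07%, and the P7 library stayed highest. With each cluster capped at the 99th percentile, P7 had 3.61% and the Adult 3.62%.

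Genes with a 3′UTR site numbered 442, 266, 306, 523 and 357 from e12.5 to Adult, and 952 in all. Of these, 479 were listed in at least 2 libraries and 63 in all 5, whereas of 11065 genes with a 3′UTR site of any seed 8644 were listed in at least 2 libraries and 2848 in all 5. P7 and Adult shared 210 genes, which is 40.2% of the P7 genes and 58.8% of the Adult genes, beside 60.3% and 85.1% for genes with a 3′UTR site of any seed. e12.5 and Adult shared 160, which is 36.2% and 44.8%, beside 55.02% and 80.5%. In both pairs the shares were lower for genes with a miR-30 site than for genes with any site, a difference that was not tested. A gene with any site can be listed again through any seed, whereas a miR-30 gene needs this seed. Lower values, here and in the counts over libraries, therefore follow from the measure and are not read as a trait of the family. In the CDS the family had sites in 798 genes, and in the 5′UTR in 51. Of single 3′UTR positions, 5.44% were listed in all 5 libraries, against 0.585% of the 3′UTR positions of all seeds.

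By mean over the 5 libraries, the most read 3′UTR site of at least 7 matched bases listed in all of them was in Gigyf1. This gene encodes a GYF domain protein linked to translational repression. In single libraries the 3′UTR site of Ccne2 led at e15.5, that of Itgb3 at P7 and that of Gucd1 in the Adult. The Gigyf1 site had 5419, 1045, 2808, 2781 and 861 reads from e12.5 to Adult. Per 1000000 cluster reads this was 121, 63.3, 216, 169 and 34.6. Per 1000000 3′UTR reads outside miRNA genes it was 963, 407, 1337, 1923 and 1271, so the direction from e12.5 to Adult turned with the scale.

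The sites of both cyclin genes among the most read had their lowest counts in the Adult. The Ccne2 site (cyclin E2, which acts at entry into S phase) had 3599, 3159, 1422, 2012 and 21 reads from e12.5 to Adult. The Ccnf 3′UTR site (cyclin F) had 370, 642, 213, 110 and 25 reads in the same order. Among 3′UTR sites of at least 7 matched bases listed in all 5 libraries, the Ccne2 site had the largest decrease from e12.5 to Adult, at -6.57 on the log2 scale of reads per 1000000 cluster reads, and Ccnf had -3.04. Per 3′UTR reads outside miRNA genes the changes were -4.37 and -0.83, and on that scale the Adult value of every site moves up by the same amount.

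Itgb3 and Slc35b2 were most read at P7. Itgb3, which encodes integrin beta 3, had 1258, 906, 1786, 3418 and 500 reads from e12.5 to Adult. Slc35b2, a Golgi transporter of the sulfate donor, had 112, 122, 138, 1678 and 77 reads. Gucd1 had 992, 605, 693, 1993 and 974 reads. Per 1000000 cluster reads its site was highest at P7 (121, against 39.1 in the Adult), but per 1000000 3′UTR reads outside miRNA genes it had 1378 at P7 and 1438 in the Adult.

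The Ccdc71l and Ddx5 sites were read most at e12.5 and e15.5. Ccdc71l had 5051, 2953, 563, 161 and 40 reads from e12.5 to Adult. Ddx5, an RNA helicase whose site lies in a 3′UTR or in the CDS depending on the transcript, had 1654, 780, 79, 100 and 74 reads. Plagl2, a zinc finger transcription factor, had 895, 1251, 254, 688 and 107 reads, or 19.9, 75.7, 19.5, 41.7 and 4.30 per 1000000 cluster reads, so e15.5 was highest and P7 came next. The 15 most read sites were ranked among those of at least 7 matched bases listed in all 5 libraries. The remaining ones, in Hipk1, Atf1, Smarcd2, Slc12a7, Ifnar2 and Tmed3 besides Ccnf, had means of 13.8 to 20.2 on the same scale. Outside this ranking, 3′UTR sites in Igf2 (a 6mer, not listed in the Adult) and Slc16a6 (not listed at P7) had means of 36.2 and 34.7.

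The 5 largest increases from e12.5 to Adult among 3′UTR sites of at least 7 matched bases listed in all 5 libraries were at sites with few reads at e12.5. Nfia, a transcription factor of the nuclear factor I family, had 21, 46, 7, 182 and 184 reads from e12.5 to Adult. Fgfr3, a fibroblast growth factor receptor, had 36, 8, 9, 383 and 309 reads. Both were thus low in the 3 embryonic libraries and high in both postnatal ones. Aplp2, Tnpo1 and Alcam had log2 changes of 3.45, 3.07 and 2.80 per cluster reads. Per 3′UTR reads outside miRNA genes these were 5.65, 5.28 and 5.01. The Slc38a4 site, not listed at e15.5 and so outside this ranking, had 9, 228, 614 and 552 reads in the other libraries. Its log2 change was 6.79 per cluster reads and 8.99 per 3′UTR reads outside miRNA genes. These changes were chosen for their size, and no replicate check was made.

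In coding sequences Hist2h2bb had the most read site at e12.5 and e15.5 and Aldh1l1 had it in the Adult. Hist2h2bb, which encodes a histone H2B, had 6676, 6597, 564, 144 and 19 reads from e12.5 to Adult. Tst, a mitochondrial sulfurtransferase, had 230, 303, 359, 991 and 1500 reads in the same order. Appl2, an endosomal adaptor, was highest at e18.5 with 848 reads, and Zfand6 had 1147 reads at e12.5 and 107 in the Adult. The 10 most read sites of the Adult outside miRNA genes held, besides Tst, CDS sites in Aldh1l1 of folate metabolism (1850 reads), Rer1 of the Golgi (1473 reads), the apolipoprotein Apoc3 (1135 reads), Mat1a of S-adenosylmethionine synthesis (1048 reads), the esterase Aadac (1023 reads), the transcription factor Ahr (954 reads) and Pck1 of gluconeogenesis (948 reads). These were named after their values were seen, and those in Rer1, Apoc3 and Aadac are 6mers. Aldh1l1, Apoc3, Mat1a, Aadac and Pck1 were not listed at e12.5, where Rer1 had 168 reads and Ahr 58. The level of the messenger RNAs was not measured here, so reads at a site cannot be told apart from the amount of its transcript.

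**Figure D5:**
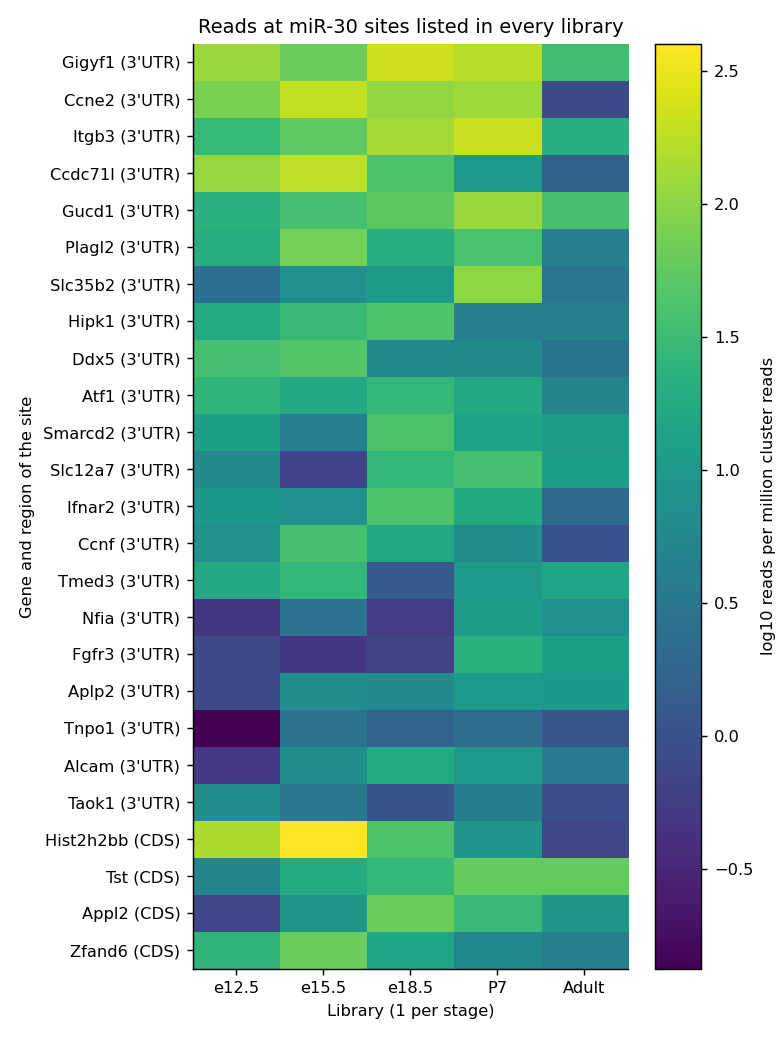
Reads per 1000000 cluster reads (log10 colour scale) in the 5 libraries at miR-30 sites of at least 7 matched bases that are listed in every library: the 15 genes with the highest mean in the 3′UTR, those with the largest changes from e12.5 to Adult, and CDS sites. Ccne2, Ccdc71l and Hist2h2bb are bright in the embryo and dark in the Adult, and Tst runs the other way.

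Over all 3′UTR sites listed in both libraries of a pair, reads at miR-30 sites moved little beyond those of other sites. Between e12.5 and Adult the median log2 change was 0.36 at 154 miR-30 sites and 0.20 at all 11722 sites. Of the miR-30 sites 44 (28.6%) were at least 2-fold above the median of all sites, against 28.8% of all sites, and 24.0% were as far below, against 31.9%. From e18.5 to P7 the median was -0.12 at 190 sites beside -0.34 at all sites, with 37.9% of miR-30 sites 2-fold above (34% of all sites) and 28.9% below (34.2%). From P7 to Adult it was -0.66 at 199 sites beside -0.37, with 18.6% 2-fold above (25% of all sites) and 31.7% below (26%). Scaled to the 3′UTR reads outside miRNA genes, the miR-30 medians of the last pairs were 0.76 and 1.03. That scaling moves all sites of a pair by the same amount, so the miR-30 medians still differed from those of all sites by 0.22 and -0.29.

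Gene lists drawn up for this tissue were read against all genes. The lists were chosen with earlier results of these data known, so the counts here and below are descriptions and not a test. A 3′UTR miR-30 site of at least 7 matched bases in at least 3 libraries was listed for 229 of the 6705 genes (3.42%) with any 3′UTR site in that many libraries. Of 18 such genes of miRNA biogenesis and silencing, 6 had one: Ago2 and Ago3, which bind miRNAs, Tnrc6a, Tnrc6b and Tnrc6c, the GW182 proteins that carry out silencing, and Dcp1a, a decapping factor. Genes of this list had a median of 35 3′UTR clusters over the libraries, against 11 for all genes, and the part of this in the count was not tested.

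The silencing sites were read to different depths. The median 3′UTR site of the family had 41, 42, 53.5, 22 and 30 reads from e12.5 to Adult. The Tnrc6a site had 137, 122, 323, 9 and 22 reads from e12.5 to Adult. Its log2 change from e12.5 to Adult was -1.79 per cluster reads and 0.42 per 3′UTR reads outside miRNA genes, so the direction turned with the scale. The Tnrc6b site was not listed at e15.5 and had 62, 6, 22 and 78 reads in the other libraries, by age. The Ago3 site had 45, 37, 36 and 42 reads at e12.5, e15.5, P7 and Adult and was not listed at e18.5. The Ago2 site had 58, 168, 7 and 20 reads by age and was not listed at P7. The Tnrc6c site had 7, 110, 60 and 46 reads by age and was not listed at e15.5. The Dcp1a site had 65, 19 and 74 reads at e12.5, P7 and Adult. A site that is not listed may lie below the minimum of 5 reads in the tables.

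Of 21 genes known from the literature as miR-30 targets and listed with any 3′UTR site in at least 3 libraries, 4 had a site by this rule: Itgb3, Ccne2, Tnrc6a and Mtdh. Ubiquitin and SUMO conjugation had 2 of 31, Ube2f and the ligase Nedd4, whose site was read 254, 162, 237, 368 and 325 times from e12.5 to Adult. Notch signalling had 1 of 16, the presenilin Psen2 with 339 reads in the Adult, and TGF-beta and BMP signalling had 1 of 16, the receptor Acvr1. Lipoprotein assembly and lipid synthesis had 0 of 31, autophagy 0 of 20 and liver lineage transcription factors 0 of 14. Beside 3.42% of all genes, the counts of 0 to 2 show nothing particular to these lists. In fewer libraries Lpgat1 and Elovl5 of the lipid list had such a site in 2, Elovl6 in 1, and Foxa1 and Sox4 of the lineage list in 1 each.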

How the data were processed

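Ago HITS-CLIP libraries of mouse liver were made from tissue exposed 3 times to UV at 254 nm, at a dose of 0.2 J/cm2, before lysis. Per the methods, the authors mapped reads with Bowtie to mm10 and to miRBase 19 precursors, grouped overlapping reads into clusters, and scanned clusters for seeds; mm9 is also named in the submitters' processing notes. The study names 2 biological replicates, but 1 table per stage was analysed here. The deposited tables give a read signal per cluster (at least 5), a pairing free energy score and a conservation score, with a number in each miRNA's name that was taken as its reads. Target strings matched GRCm38 (mm10).

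Members, gene lists and tests were chosen with earlier results of these data known. Named genes were the 15 with the highest mean reads per 1000000 (rpm) at 3′UTR sites of at least 7 matched bases listed in all 5 libraries, the 5 largest increases and 5 largest decreases from e12.5 to Adult, the 5 leading CDS genes, list genes with such a site in at least 3 libraries, and the 5 miRNAs most like the family (log2 of rpm plus 1). Sites in miRNA genes were left out of these rankings. Older gene symbols were matched through RefSeq synonyms, and marker names lacking a letter to the files' a form (miR-126-3p to miR-126a-3p). For a miRNA with several gene copies the highest number was taken. Lists of a table were added up, and overlapping clusters were joined. Pairs of libraries were compared over the seeds that had a minimum of 50 clusters of 3′UTRs in each, by two-sided Fisher's exact test with Benjamini-Hochberg adjustment (threshold 0.05), tested on simulated data. Alternatives covered read minimum, match length, list, scaling and miRNA whole. Python 3.11.15, numpy 2.4.6, pandas 2.3.3, scipy 1.17.1 and matplotlib 3.10.9 were used.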

Additional observations from a re-analysis of the deposited data

How the results depend on the processing

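No paired analysis was possible because P7 and Adult had 1 list each and the lists of the embryonic tables carry no replicate number. The higher miR-30 site share in the Adult than at e12.5 kept its direction and its call under all 5 alternatives, with log2 odds ratios of 0.25 to 1.18 and adjusted p of 1.66e-20 to 0.0212 (two-sided Fisher's exact test); the lowest came with genes counted, where the median family had -0.80. Between P7 and e18.5 it was -0.31 in the second list alone (Fisher's exact test, adjusted p = 0.0429) and turned to 0.35 with genes counted (adjusted p = 0.00240), where the median family moved from -0.01 to 0.44. Between Adult and P7 it was 0.22 at 10 reads or more (Fisher's exact test, adjusted p = 0.141) and turned to -0.0588 with genes counted (adjusted p = 0.688), where the median family moved from 0.13 to -0.27. Counting genes thus moved the median over families, and miR-30 kept its distance from that median to within 0.1, while the cause of the other changes was not tested. Families called between Adult and e12.5 numbered 129 of 307, and 79 of 189 at 7 matched bases or more, 77 of 228 in the first list alone and 270 of 305 with genes counted. Between P7 and e18.5 they numbered 100 of 339, and 24 of 261 at 10 reads or more, 34 of 174 at 7 matched bases or more, 31 of 241 and 55 of 224 in the first and second list, and 194 of 339 with genes counted. Between Adult and P7 they numbered 52 of 327, and 25 of 199 at 7 matched bases or more and 111 of 325 with genes counted. The median read change at shared sites was 0.67 (Adult over e12.5) and turned to 0.35 (P7 over e18.5) per the study's total reads (for e18.5 those of the entry not marked as a second replicate). Per 3′UTR reads outside miRNA genes, an alternative chosen after seeing the data, it was 2.57 (Adult over e12.5) and turned to 0.76 (P7 over e18.5) and 1.03 (Adult over P7). At 10 reads or more in both it was -0.57 (P7 over e18.5). Genes listed in at least 2 libraries numbered 479. From e12.5 to Adult, the family's share of miRNA reads was 1.59%, 2.18%, 3.23%, 7.21% and 1.71% with gene copies summed. Without blood cell miRNAs it was 4.01%, 4.29%, 5.73%, 9.59% and 2.37%. With both arms it was 1.72%, 2.47%, 3.605%, 11.3% and 2.44%. In the first list alone it was 1.84% (e12.5), 1.86% (e15.5) and 3.17% (e18.5). In the second list alone it was 1.29% (e12.5), 2.002% (e15.5) and 3.84% (e18.5). The share of 3′UTR clusters with a site was 1.02% (e12.5), 1.75% (e18.5), 1.58% (P7) and 2.02% (Adult) at 7 matched bases or more. In the first list alone it was 1.04% (e12.5). In the second list alone it was 1.32% (e12.5) and 2.29% (e18.5). With genes counted it was 5.26%, 4.48%, 5.12%, 6.45% and 6.21%. At 10 reads or more it was 2.22% (e18.5) and 2.14% (P7). The number of genes was 112 (e12.5), 38 (e15.5) and 190 (e18.5) in the first list alone. In the second list alone it was 203 (e18.5). The share of 3′UTR sites with at least 7 matched bases was 88.4% (e12.5), 91.8% (e18.5) and 88.2% (P7) at a conservation score of at least 0.5. The share of 3′UTR cluster reads was 1.85%, 2.15%, 2.98%, 3.61% and 3.62% with clusters capped at the 99th percentile. Without clusters over miRNA genes it was 1.28%, 1.31%, 1.54%, 3.92% and 3.07%. At 10 reads or more it was 3.43% (P7). The share of sites in the 3′UTR was 38.9% (P7) at 10 reads or more. The share of sites in the CDS was 24.2% (e12.5), 23.3% (P7) and 32.6% (Adult) with 1 region per site. Leaving out clusters over miRNA genes was also chosen after seeing the data. Leaving blood cell miRNAs out of the whole for single members, chosen after seeing the data, turned the log2 fold of mmu-miR-30b-5p from e12.5 to P7 to -0.73 and those of mmu-miR-30a-5p, mmu-miR-30d-5p and mmu-miR-30e-5p from e12.5 to Adult to -0.0226, -0.82 and -1.07. The other 74 values under an alternative stayed within the counting interval of a share, within 1.5 times for a number of genes or families, within 0.1 for a log2 change and 0.05 for a conservation score, or kept direction and call for an odds ratio.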
